A study of Mus musculus with 3 samples.

Results

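The 10 genes described here build the acrosome, the secretory vesicle that caps the sperm nucleus and carries the enzymes and binding proteins used at the egg coat. They were chosen by symbol: Acr, Acrbp, Acrv1, Spaca1, Dpy19l2, Zpbp, Zpbp2, Gopc, Pick1 and Agfg1, which match 11 rows among the 31053 genes of the deposited tables because Pick1 is listed under a pair of gene IDs. The acrosome forms in round spermatids (RSs): vesicles that leave the Golgi apparatus fuse into a granule, the granule attaches to the nuclear envelope and then spreads over the nucleus as a cap. Some acrosomal mRNAs are already present in spermatocytes (SPs), the meiotic cells, and others appear only after meiosis, which is why their onset and loss were followed here from SPs to elongated spermatids (ESs).

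Testicular cells were sequenced from C57BL/6 mice labelled as 8 weeks old, with 1 library for each of 3 genotypes: wild type (WT), GRTH-KO (KO) and GRTH-KI (KI). GRTH, the protein of the gene Ddx25, is an RNA helicase of male germ cells. KO mice lack the gene, and KI mice carry a missense form of it that loses the phosphorylated protein while the non-phosphorylated form remains. The labels give 1 mouse per library, whereas the study's methods describe the pooled testes of a pair of mice per genotype and a wider adult age range. With 1 library per genotype no difference has a replicate check: no test was made, every interval below is a 95% interval that covers counting error only, and genotype cannot be told apart from preparation or library.

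The members fall into 4 groups by role. Acr encodes acrosin, the serine protease of the acrosome, Acrbp its binding partner that packs proacrosin, and Acrv1 the matrix protein SP-10. Spaca1 encodes a protein of the inner acrosomal membrane and Dpy19l2 a protein of the inner nuclear membrane that holds the acrosome to the nucleus. Zpbp and Zpbp2 encode zona pellucida binding proteins of the acrosomal matrix. Gopc and Pick1 encode PDZ-domain proteins of Golgi vesicle traffic, and Agfg1 a protein needed for the fusion of proacrosomal vesicles.

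The promoters of 6 members are shown. In the ordered WT clusters described below, Acrv1 and Spaca1 rose together, and Zpbp2, Dpy19l2 and Gopc were highest in SPs. Pick1 varied little in that order up to RSs. Each sequence is the 250 bases upstream of a RefSeq start site (GRCm38.p6), 5′ to 3′ on the gene's own strand. Capitals mark TGACG on either strand, the core of the cAMP response element (CRE) used by the spermatid activator CREM, and in Pick1 the X-box, the palindrome bound by RFX factors. The windows are chr9:36692970-36693219 (+) for Acrv1, chr4:34050066-34050315 (−) for Spaca1, chr11:98550847-98551096 (+) for Zpbp2, chr9:24696294-24696543 (−) for Dpy19l2, chr10:52382125-52382374 (−) for Gopc and chr15:79228923-79229172 (+) for Pick1.
Acrv1: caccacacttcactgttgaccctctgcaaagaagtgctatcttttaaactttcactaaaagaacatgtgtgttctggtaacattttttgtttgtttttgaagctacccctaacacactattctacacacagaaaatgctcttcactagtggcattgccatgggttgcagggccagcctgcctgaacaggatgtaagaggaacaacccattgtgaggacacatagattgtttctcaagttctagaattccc
Spaca1: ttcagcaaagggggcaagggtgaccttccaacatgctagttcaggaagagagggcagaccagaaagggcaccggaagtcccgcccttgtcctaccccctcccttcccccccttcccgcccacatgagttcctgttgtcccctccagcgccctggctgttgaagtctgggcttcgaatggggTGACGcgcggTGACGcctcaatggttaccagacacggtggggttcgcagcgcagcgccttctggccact
Zpbp2: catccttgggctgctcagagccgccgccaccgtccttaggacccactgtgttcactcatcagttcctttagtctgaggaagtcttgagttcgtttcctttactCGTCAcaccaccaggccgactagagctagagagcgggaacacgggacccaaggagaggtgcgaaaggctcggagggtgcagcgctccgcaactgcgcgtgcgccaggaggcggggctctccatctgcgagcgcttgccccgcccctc
Dpy19l2: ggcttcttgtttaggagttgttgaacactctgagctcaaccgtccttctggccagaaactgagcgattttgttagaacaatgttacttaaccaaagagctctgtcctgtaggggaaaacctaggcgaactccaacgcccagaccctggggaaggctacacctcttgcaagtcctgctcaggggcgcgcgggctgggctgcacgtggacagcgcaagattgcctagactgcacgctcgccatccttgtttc
Gopc: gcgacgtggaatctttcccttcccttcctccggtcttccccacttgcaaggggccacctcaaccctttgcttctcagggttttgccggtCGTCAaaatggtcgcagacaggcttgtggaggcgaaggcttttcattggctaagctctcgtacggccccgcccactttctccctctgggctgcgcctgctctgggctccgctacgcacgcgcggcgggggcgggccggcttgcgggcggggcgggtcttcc
Pick1: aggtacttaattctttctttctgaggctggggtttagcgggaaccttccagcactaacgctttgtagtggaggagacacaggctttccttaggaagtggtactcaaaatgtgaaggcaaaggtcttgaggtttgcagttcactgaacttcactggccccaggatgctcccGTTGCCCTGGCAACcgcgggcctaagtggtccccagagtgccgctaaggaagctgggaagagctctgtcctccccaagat

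Of the 10 members, 9 had a promoter in the table, and 4 of these (Acrbp, Spaca1, Zpbp2 and Gopc) held TGACG within 250 bases, as did 17.8% of all 32851 promoter windows. Spaca1 held it at 2 places, 10 bases apart, with the first bases at −69 and −59. The full CRE, TGACGTCA, was in no member and in 1.55% of all windows. The X-box was in 1 of 2 Pick1 entries, the one shown, from −80 to −67, in no other member and in 0.374% of all windows. These matches describe the letters of the windows: Acrv1 and Spaca1, which rose together below, did not share a TGACG.

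The genes lie on 7 chromosomes of GRCm38, all annotated as protein coding. Acrv1 spans chr9:36693220-36698843, Dpy19l2 chr9:24557047-24696293, Spaca1 chr4:34024874-34050191, Acrbp chr6:125049689-125063267, Agfg1 chr1:82839483-82901182, Gopc chr10:52335850-52382124, Zpbp chr11:11279626-11462408, Zpbp2 chr11:98551097-98558665, Acr chr15:89568326-89574585 and Pick1 chr15:79229173-79249484. The second Pick1 row is the readthrough gene Gm49486 on the same strand, which held 22, 30 and 26 UMIs (unique molecular identifiers, each standing for 1 captured mRNA) in the whole WT, KO and KI libraries, against 1570, 2603 and 1932 in the Pick1 row used here. Reads in exons that both genes share cannot be given to either, so Pick1 levels are uncertain and may be too low.

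The 3 libraries held 82973909 (WT), 91388296 (KO) and 73150373 (KI) UMIs in all barcodes. Cell calling and the limits of over 500 genes and under 10% mitochondrial UMIs left 5853, 4049 and 1574 cells, with median totals of 5147, 4023 and 11731 UMIs. The libraries shared 16 (WT and KO), 36 (WT and KI) and 8 (KO and KI) barcodes among these cells. Ddx25 matched the labels in KO, with 10 UMIs in SP-like cells against 4627 in WT, while KI held 2335. The cells were clustered without the members, and clusters were named by other markers: 5 SP-like clusters, the RS-like cluster 4 and 3 ES-like clusters (8, 3 and 5), with the unnamed cluster 12 before them, whose best-scoring markers are those of early meiotic cells and spermatogonia. In cluster 4 none of the 9 RS markers was at 0 in any library and their summed level was 3583 CPM in WT, against 3535 in KO and 3237 in KI, where CPM is a gene's share of the summed UMIs of a cluster in 1 library, scaled to a total of 1000000. SP markers summed to 1553, 2205 and 2244 CPM in cluster 4 and ES markers to 9675, 4697 and 3567 CPM (WT, KO, KI). As CPM, Ddx25 in KI was at 87.6 against 218 in WT in SP-like cells. It was at 155 against 158 in cluster 4 and at 96.4 against 55.3 in cluster 8, so it was not lower throughout.

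Cluster 8 was named ES-like with 11 of 11 ES markers higher. The score of its RS markers was close behind, at 0.841 against 0.961, so it is described by number. Its RS markers summed to 3916 CPM in WT against 5970 and 5706 in KO and KI. Its ES markers summed to 198462, 80404 and 78365 CPM (WT, KO, KI). WT, KO and KI had 517, 292 and 117 cells in cluster 8. The more advanced clusters 3 and 5 were mostly WT, with 825 and 1123 WT cells against 236 and 9 KO cells and 95 and 2 KI cells. KO cells in cluster 3 also held hemoglobin (Hbb-bs, 526 CPM) and Sycp3 (225 CPM, against 13 in WT), so KO values there come from a mixed group.

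Acr and Acrbp were already on in the early SP-like clusters of WT, while Acrv1 rose in the last SP-like cluster and further in the RS-like cluster. Clusters 1 and 2, described below, are left out of this order. Over the WT clusters, placed by their median pseudotime (an order along the germ lineage computed without the members), Acrv1 stood at 3.38 CPM in cluster 6 and 3.62 CPM in cluster 11, both SP-like, and at 86.4 CPM in cluster 9, an SP-like cluster with few UMIs. It reached 192 CPM in cluster 7, the last of these, and 631 CPM in the RS-like cluster 4, then stood at 249 CPM in cluster 8 and 16.4 CPM in cluster 3. KO and KI followed the same rise, with 193 and 182 CPM in cluster 7 and 625 and 608 CPM in cluster 4. In all 3 libraries the main rise of Acrv1 thus fell between cluster 11 and cluster 4. Cluster 7 was named with 6 of 10 SP markers higher. Its RS markers summed to 838 CPM in WT, against 97.1 in cluster 11 and 3583 in cluster 4. The rise in cluster 7 is thus not shown to lie in SPs alone.

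Acr changed less than Acrv1 over the SP-like clusters. In WT it stood at 20.3 CPM in cluster 12 and 253 CPM in cluster 13. It then rose from 128 CPM in cluster 6 to 178 in cluster 9, 204 in cluster 11, 246 in cluster 7 and 256 in cluster 4. It dropped to 105 CPM in cluster 8 and 17.5 CPM in cluster 3. Among the ordered clusters Acrbp was highest in cluster 13, a small SP-like cluster of 33 WT, 59 KO and 23 KI cells, at 1051, 956 and 1146 CPM, and stood at 495, 489 and 477 CPM in cluster 4. The place of cluster 13 before cluster 6 is narrow, with WT median pseudotimes of 0.691 and 0.693. Its cells were also shallow, with medians of 4882, 6943 and 2603 UMIs, against 29959, 34023.5 and 78907 in cluster 6 (WT, KO, KI). At a resolution of 0.8 the cluster with the same cell numbers lay at 0.75. That was after an SP-like cluster at 0.733 and before the SP-like cluster led by Piwil1 at 0.776. The same limits hold for the cluster 13 levels of the other members. In this order Acrbp fell below 50% of its highest level within the SP-like clusters, and ran between 375 and 634 CPM in WT from cluster 6 to cluster 4.

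Spaca1 kept close to Acrv1. Its WT level was 9.15 CPM in cluster 6, 211 CPM in cluster 7, 750 CPM in cluster 4, 270 CPM in cluster 8 and 29.8 CPM in cluster 3. Among the ordered clusters Acrv1 and Spaca1 were the members that reached 50% of their highest level only in the RS-like cluster, in each of the 3 libraries, while the other 8 did so before it; both had passed 25% of it in the SP-like cluster 7. The unnamed cluster 2, whose WT median pseudotime of 0.788 lies before the 0.809 of cluster 4, held 798 CPM of Acrv1 and 501 CPM of Spaca1 in WT, so this onset depends on the order used. Over the 12 WT germ clusters, the log2 profiles of Acrv1 and Spaca1 had a Pearson r of 0.98, a description over clusters of 1 library. Dpy19l2 ran the other way: it was highest in cluster 13, at 601, 537 and 594 CPM (WT, KO, KI), stood at 171, 173 and 173 CPM in cluster 7, and was down to 82.3, 80 and 100 CPM in cluster 4.

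Zpbp and Zpbp2, whose proteins act together at the zona pellucida, had related profiles that differed in part. Their Pearson r over the 12 WT germ clusters was 0.87. In WT Zpbp was at 624 CPM in cluster 13, 351 CPM in cluster 6, 536 CPM in cluster 11, 553 CPM in cluster 7 and 534 CPM in cluster 4. Zpbp2 was at 365 CPM in cluster 6, peaked at 769 CPM in cluster 11 and at 723 CPM in cluster 7, and was back to 443 CPM in cluster 4. In cluster 8 Zpbp still had 125 CPM, 23.3% of its cluster 4 level (95% interval 21.8 to 25), and Zpbp2 had 39.2 CPM, 8.85% (7.88 to 9.9).

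The Golgi and vesicle factors had no RS-like peak. Among the ordered clusters Gopc was highest in SP-like ones, with 32.6, 44.9 and 56.6 CPM (WT, KO, KI) already in cluster 12. It stood at 69.5, 69.4 and 71 CPM in cluster 6, at 10.5, 7.7 and 9.57 CPM in cluster 7, and at 2.02, 1.52 and 2 CPM in cluster 4. Agfg1 varied little, between 101 and 192 CPM in WT from cluster 12 to cluster 4, and Pick1 less, between 23 and 28.6 CPM over the same clusters. The 3 levels of each gene in cluster 6 or cluster 4 overlapped in their counting intervals for Gopc and Pick1, so no order among the genotypes can be read from them.

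**Figure D1:**
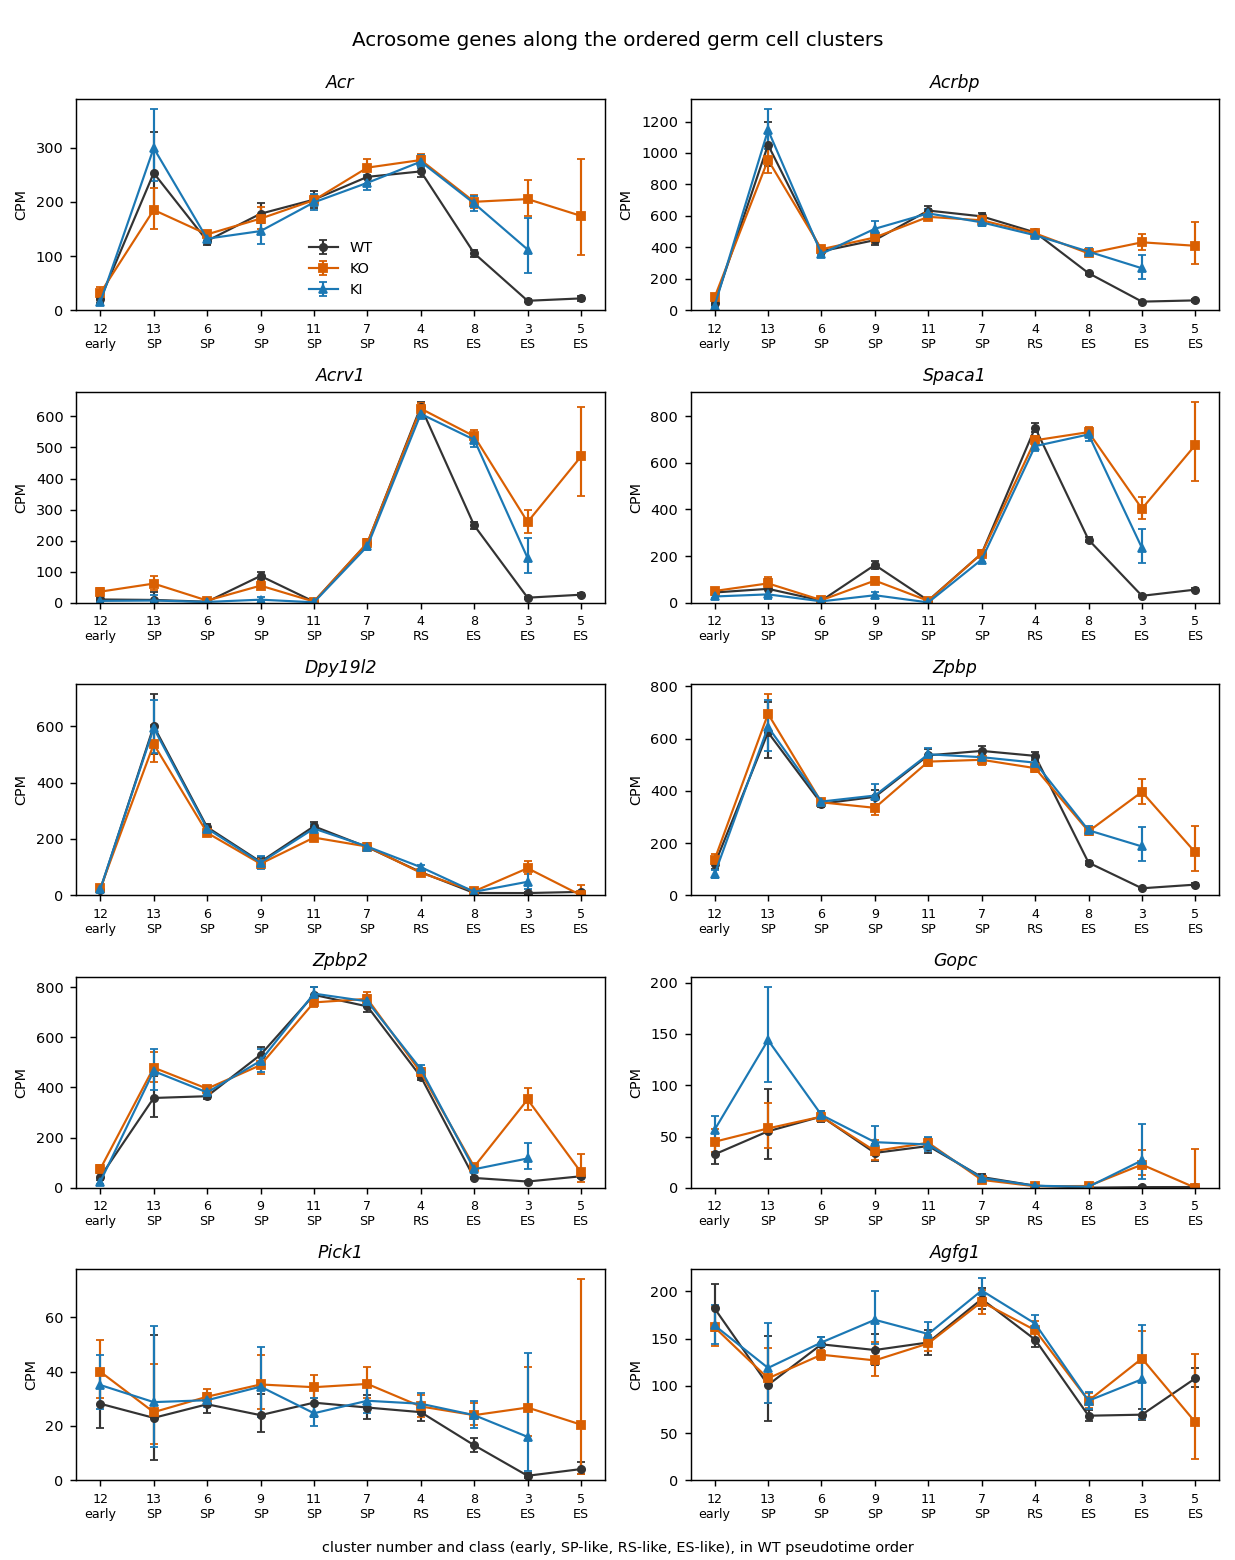
Level of each gene in CPM (vertical axis, linear) in the germ cell clusters placed by WT pseudotime (horizontal axis, with the class each cluster was named for), for WT (black circles), KO (orange squares) and KI (blue triangles); bars are exact Poisson 95% intervals and cover counting error only. Acrv1 and Spaca1 rise between clusters 11 and 4, Gopc is between 1.52 and 2.02 CPM in cluster 4, and WT lies below KO and KI in cluster 8 (not for Agfg1 with TMM scaling); KO and KI have 236 and 95 cells in cluster 3, and KO has 9 in cluster 5.

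Free RNA adds to these levels. In barcodes ranked as empty, Acrv1 stood at 193, 189 and 220 CPM, Spaca1 at 457, 418 and 464 CPM and Zpbp2 at 378, 458 and 342 CPM (WT, KO, KI). Sertoli-like cells, somatic cells that should lack Acrv1, Spaca1 and the other germ cell transcripts, are small in UMIs and held Acrv1 at 105, 161 and 181 CPM. WT Sertoli-like cells had 453 CPM of Acrbp and 489 CPM of Zpbp2, against 495 and 443 CPM in cluster 4. The 15 WT Leydig-like cells, which had more UMIs each, had 15.3 CPM of Acrbp (95% interval 1.85 to 55.3) and no UMI of Zpbp2 (upper bound 28.2 CPM). The 2 somatic groups thus gave very different floors. Barcodes of 500 to under 1000 UMIs numbered 28529 in KO, against 6587 in WT and 6550 in KI. The amount of free RNA per barcode may thus differ between libraries, which was not tested. After cells were thinned to 1500 UMIs, which leaves out 99 of 192 (WT), 132 of 267 (KO) and 42 of 84 (KI) Sertoli-like cells with fewer, 62.5% of WT cluster 4 cells had an Acrv1 UMI, against 0.647% of cluster 6 and 9.68% of Sertoli-like cells. Without thinning the Sertoli-like and cluster 4 medians were 1465.5 and 12523.5 UMIs in WT, which is why the thinned shares are given; thinning evens out the depth but keeps each cell's proportion of free RNA.

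The thinned shares of the other members varied. Gopc was lower in cluster 4 than in Sertoli-like cells in every library, at 0.364%, 0.251% and 0.538% of cluster 4 cells against 3.23%, 2.96% and 2.38% of Sertoli-like cells; Gopc, Pick1 and Agfg1 are not germ cell genes alone, so Sertoli-like cells are no background for them. Dpy19l2 was at 13.3% of cluster 4 cells against 9.68% of Sertoli-like cells in WT, 11.5% against 13.3% in KO and 11.8% against 11.9% in KI, so in no library is its level in cluster 4 separated from that of Sertoli-like cells. It was separated from that of Leydig-like cells, which held 0, 0 and 24.1 CPM (upper bounds 28.2, 17.8 and 44.3). The cluster 4 levels of Dpy19l2 were 82.3, 80 and 100 CPM (WT, KO, KI). Pick1 had 4.18%, 4.76% and 4.3% of cluster 4 cells against 0%, 3.7% and 4.76% of Sertoli-like cells (0 of 93 cells in WT, with an exact upper bound of 3.89%). Acr (33.3% against 19.4% in WT), Acrbp (51.1% against 28%), Spaca1 (66.2% against 17.2%), Zpbp (57.1% against 31.2%) and Zpbp2 (51.5% against 38.7%) were higher in cluster 4 than in Sertoli-like cells of WT. For Zpbp2 the WT intervals overlapped (47.2% to 55.7% against 28.8% to 49.4%). Intervals also overlapped for Zpbp and Zpbp2 in KO and for Acr, Acrbp and Zpbp in KI, though each share was higher in cluster 4.

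Among 5677 genes with at least 100 CPM in some WT germ cluster, those with profiles nearest to Acrv1 over the 12 clusters were Tmem190, Tmem225 and Lrrc72, each with a Pearson r of 0.986. Tmem190 encodes a membrane protein of the inner acrosomal membrane. Those nearest to Acr were Dkkl1 (r = 0.980), an acrosomal glycoprotein, Gm973 (0.976) and Gm128 (0.975). Those nearest to Gopc were Mphosph8 (0.988), Bub1b (0.987) and Sprtn (0.987). These values rank genes over clusters of 1 library and carry no error.

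The members' mRNAs were most concentrated in barcodes with few UMIs. Cluster 1, with 656 WT, 672 KO and 243 KI barcodes and a median total 0.28 times that of their own libraries, was left unnamed because none of its leading genes was a marker, although RS markers scored best; Acrv1 and Spaca1 are themselves among its 10 leading genes. There Acrv1 stood at 2439, 2328 and 3225 CPM and Spaca1 at 2053, 2374 and 3144 CPM (WT, KO, KI), 3.87, 3.73 and 5.3 times and 2.74, 3.41 and 4.69 times their cluster 4 levels. Acrbp was raised as well, at 948, 1245 and 1305 CPM against 495, 489 and 477 in cluster 4. The 10 genes together made up 7042, 7909 and 9659 CPM of cluster 1, against 3367, 3302 and 3308 CPM of cluster 4.

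The enrichment was not shared by all members. Zpbp2 was lower in cluster 1 than in cluster 4, at 205 against 443 CPM in WT, 315 against 460 in KO and 247 against 473 in KI. Agfg1 was lower as well, at 121 against 149, 110 against 159 and 81.9 against 166 CPM. Cluster 2, an unnamed cluster led by Fgf14 with 411, 727 and 124 cells, held the highest Acr of any cluster of over 100 cells in WT (339 CPM) together with 1123 CPM of Acrbp and 798 CPM of Acrv1. Its cells had median mitochondrial shares of 5.49%, 6.55% and 4.91%, against 0.0993%, 0.297% and 0.297% in cluster 4 (WT, KO, KI).

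Over every barcode, sorted only by total UMIs, Acrv1 peaked in WT from 1000 to under 2000 UMIs, at 569 CPM against 207 CPM in barcodes of 10000 or more. In KO and KI the peak lay from 2000 to under 5000 UMIs, at 455 and 871 CPM against 189 and 202 CPM. In these barcodes WT had 14.7% protamine and transition protein UMIs, against 0.869% in KO and 1.13% in KI. Outside the called cells, barcodes with 1000 to under 2000 UMIs had 187, 138 and 130 CPM of Acrv1 and 385, 349 and 373 CPM of Spaca1, at or below the levels of the empty barcodes. Calling takes out the barcodes whose profile differs from the empty one, so this likeness follows in part from that step. From 2000 to under 5000 UMIs the uncalled barcodes of WT and KI (143 and 47 of them) held more Acrv1, at 381 and 439 CPM, while the 781 of KO held 152 CPM.

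**Figure D2:**
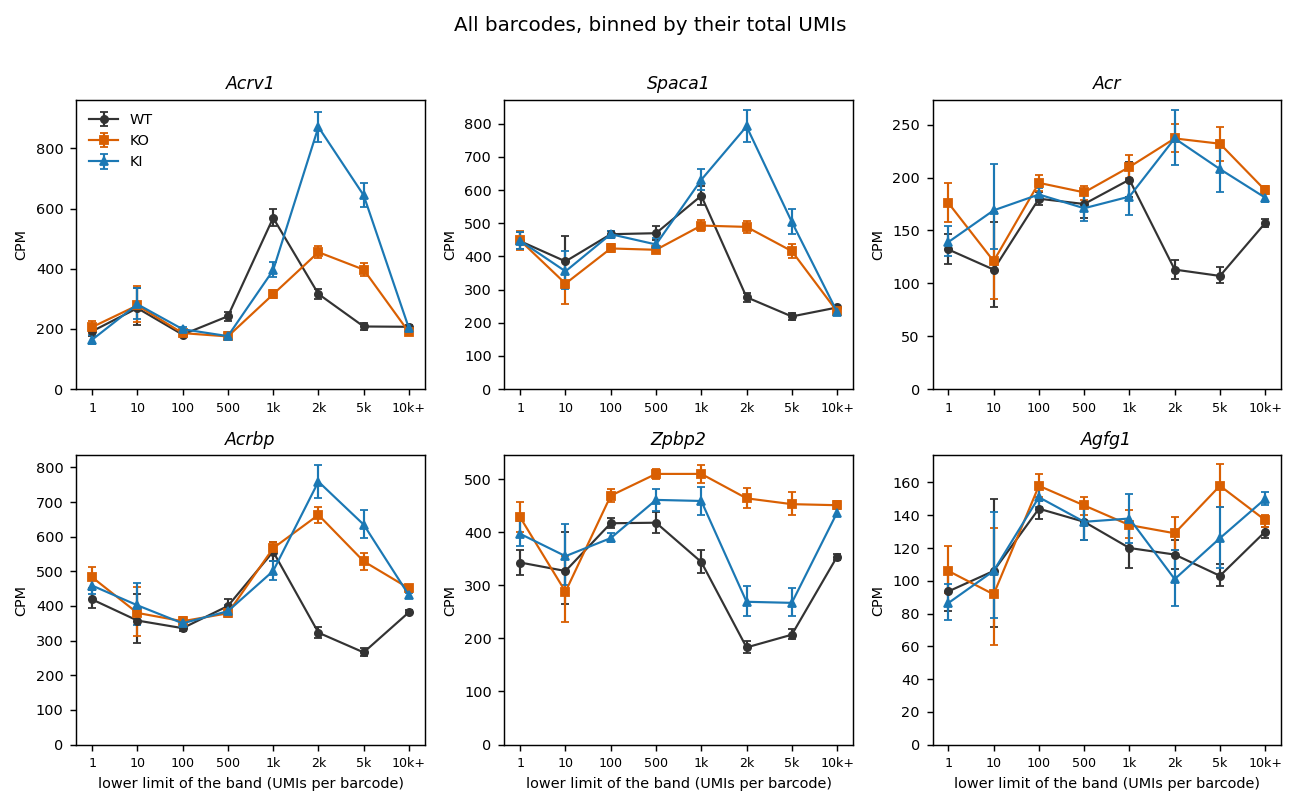
Level of 6 of the genes in CPM (vertical axis) over all barcodes of a library binned by total UMIs (horizontal axis, lower limit of each band), for WT, KO and KI, with exact Poisson 95% intervals. Acrv1 peaks at 569 CPM from 1000 UMIs in WT and at 455 and 871 CPM from 2000 UMIs in KO and KI, whereas Agfg1 stays between 86.4 and 158 CPM in every band.

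The comparison the study turns on is that of KO and KI with WT in RSs. It reports lower Acrv1 in both mutants by qRT-PCR of isolated RSs and in its own RS cells, and names Spaca1 as lower. Those are other sets of cells and other measures than the CPM of cluster 4 used here. In the RS-like cluster 4 the members differed little. WT cells of this cluster held more protamine and transition protein UMIs, at 0.63% against 0.203% in KO and 0.103% in KI. The part of this in the comparison was not tested. Acrv1 was at 631 CPM (WT), 625 (KO) and 608 (KI), log2 ratios of −0.01 (95% interval −0.07 to 0.04) and −0.05 (−0.11 to 0.00) with 1 CPM added to each level. Spaca1 was at 750, 696 and 671 CPM, log2 ratios of −0.11 (−0.16 to −0.06) and −0.16 (−0.21 to −0.11). Acr was slightly higher in both, at 256, 277 and 274 CPM.

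None of the 9 members with a mean of at least 10 CPM in cluster 4 was past 2-fold in KO or in KI, where 6.24% and 7.92% of all genes were. Their largest log2 ratios were −0.13 in KO (Zpbp, 534 against 487 CPM) and 0.28 in KI (Dpy19l2, 82.3 against 100 CPM, interval 0.14 to 0.43), beside 88.7 and 70.4 CPM of Dpy19l2 in Sertoli-like cells of WT and KI. The median over the 10 members was −0.02 in KO and 0.04 in KI, beside medians over all genes of 0.12 and 0.14. With scaling by trimmed means of M-values (TMM), which sets those medians near 0, the members' medians were −0.17 and −0.09 and 10 and 8 members were lower than WT, against 6 and 5 without it. Acrbp, Acrv1, Spaca1 and Zpbp had log2 ratios below 0 under both scalings in both mutants. By CPM the intervals reached above 0 for Acrbp (−0.08 to 0.04 in KO, −0.12 to 0.01 in KI) and for Acrv1 in KO (−0.07 to 0.04). Joining cluster 8 to cluster 4, an alternative chosen after the data were seen, gave medians of 0.25 and 0.37.

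In SP-like cells pooled as a class Acrv1 and Spaca1 were lower in both mutants, but the class mixed its clusters in different proportions. Acrv1 was at 61.3 CPM (WT), 37 (KO) and 35.3 (KI), and Spaca1 at 77.9, 45.3 and 38.8 CPM, log2 ratios of −0.77 (−0.88 to −0.68) in KO and −0.98 (−1.12 to −0.89) in KI. Acrv1 UMIs in the class numbered 1301 (WT), 1112 (KO) and 940 (KI), of which 1080, 853 and 877 lay in cluster 7. The same cluster supplied 5627635 of 21220171 UMIs of any gene in the WT class, 4417676 of 30026295 for KO and 4806640 of 26646315 for KI. Within cluster 7 the levels lay close together, with Acrv1 at 192, 193 and 182 CPM and Spaca1 at 211, 211 and 185 CPM. They lay apart in cluster 9, the SP-like cluster with few UMIs (529, 167 and 116 cells), where Spaca1 was at 162, 95.1 and 32.3 CPM and Acrv1 at 86.4, 55.2 and 10 CPM. Protamine and transition protein UMIs were at 1.76%, 0.126% and 0.0852% there, and their part in the difference was not tested. At a resolution of 0.8 an SP-like cluster led by the same genes, Cks2 and Hmgb2, held 265, 158 and 110 cells. An unnamed cluster with few UMIs held 267, 8 and 6 cells, and whether these came from cluster 9 was not tested. No member was past 2-fold in the SP-like class, where 2.47% of all genes were in KO and 3.53% in KI.

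The genotypes parted in cluster 8, though its cells may not be matched between them, as given below. Spaca1 was at 270 CPM (WT), 731 (KO) and 721 (KI), log2 ratios of 1.43 (1.36 to 1.51) and 1.42 (lower bound 1.34). Acrv1 was at 249, 536 and 525 CPM, log2 ratios of 1.10 (1.03 to 1.19) and 1.07 (0.99 to 1.16). Spaca1 stood at 36% of its cluster 4 level in WT (34.3 to 37.7), 105% in KO (101 to 109) and 107% in KI (103 to 113), and Acrv1 at 39.5%, 85.9% and 86.2%. Both mutants thus held these mRNAs near their RS-like levels in a cluster where WT held less than before. Other settings set the genotypes further apart. At a resolution of 0.8 an RS-like cluster that shared the leading genes Banf2 and Rnf151 with cluster 8 held 5 WT, 168 KO and 54 KI cells. Without integration an ES-like cluster led by Tnp1 held 1263 WT, 0 KO and 4 KI cells. The cells of cluster 8 may thus not be matched between genotypes.

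By CPM all 10 members were higher than WT in cluster 8 in both mutants, though Gopc had only 1 WT UMI there, with medians of 0.95 in KO and 0.87 in KI beside 0.48 and 0.49 over all genes. Acr was at 105 CPM in WT against 200 and 197 CPM, Zpbp at 125 against 245 and 249 CPM, Zpbp2 at 39.2 against 83.8 and 73.9 CPM and Acrbp at 236 against 362 and 373 CPM. Agfg1 differed least, at 68.4 against 84.3 CPM in both. Of the 9 members with at least 10 CPM, Acrv1, Spaca1 and Zpbp2 were past 2-fold in KO and Acrv1 and Spaca1 in KI, where 27.3% and 27.8% of all genes were past it, a share like that of the members. With TMM scaling no member was past 2-fold, the medians were 0.41 and 0.34, and Agfg1 turned to −0.24 and −0.26.

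**Figure D3:**
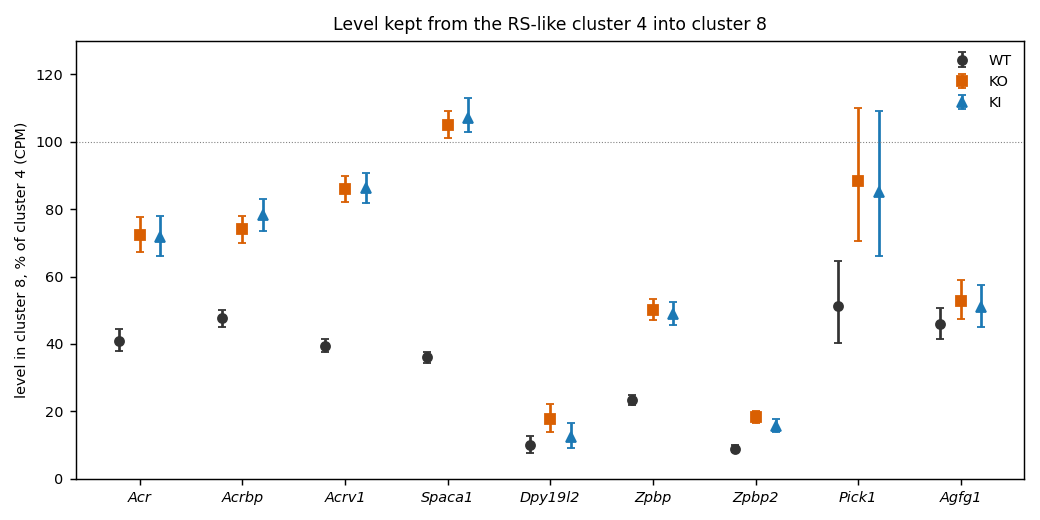
Level in cluster 8 as a percentage of the level in the RS-like cluster 4 (vertical axis, from CPM) for 9 of the genes, leaving out Gopc, which is at 2.02 CPM or less in both, in WT, KO and KI; bars are 95% intervals of the ratio and cover counting error only. By CPM the WT points lie below both mutants (for Agfg1 not below KI when protamine and mitochondrial genes are left out of the totals, 56.2% against 54.6%, or per cell, 43.5% against 42.6%), from 8.85% for Zpbp2 to 51.2% for Pick1, while Spaca1 is at 105% in KO and 107% in KI.

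WT cells of cluster 8 held more protamine and transition protein mRNA, the late spermatid transcripts Prm1, Prm2, Tnp1 and Tnp2. These made up 19% of WT UMIs in cluster 8, against 7.41% in KO and 7.21% in KI, and Prm1 was at 75634, 23710 and 22679 CPM. Among WT cells of cluster 8 alone the members fell as that share rose: Spaca1 was at 806 CPM in 81 cells with 3% to 10%, at 343 CPM in 142 cells with 10% to 20% and at 24.3 CPM in 282 cells with 20% to 30%. Neither mutant had a cell of cluster 8 above 20%.

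At shares of 3% to 10% the excess was not seen. In cluster 8 cells with 3% to 10% (81 WT, 244 KO and 90 KI cells) Spaca1 was at 806, 748 and 742 CPM, a log2 ratio of −0.11 (−0.20 to −0.02) in KO and −0.12 (−0.22 to −0.02) in KI. Acrv1 was at 568, 526 and 500 CPM and Acrbp at 339, 357 and 351 CPM. The members' medians were −0.13 in KO and −0.22 in KI, and none of 9 was past 2-fold, where 20% and 23.6% of all genes were. This band within cluster 8 was chosen after the data were seen. Bands over all spermatids, RS-like and ES-like, draw on different clusters in each genotype. At 3% to 10%, 17 WT cells were in cluster 4, 39 in cluster 5 and 81 in cluster 8, against 31 KI cells in cluster 3 and 90 in cluster 8. There Zpbp2 (158 against 60.3 CPM) and Dpy19l2 (25.9 against 11.2 CPM) were past 2-fold lower in KI, 2 of 9 members where 27.7% of all genes were, and none was in KO, where 21.1% were. At 10% to 20% the same pair was past 2-fold lower in both mutants, where 23.6% (KO) and 23.1% (KI) of all genes were past it, but 184 of 336 WT cells there were in cluster 5, against 1 of 29 in KO and 1 of 17 in KI, and the mean shares were 16.2%, 10.8% and 11.8%.

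In the cluster 8 cells with 3% to 10% the mRNAs of the zona pellucida binding proteins were below WT in both mutants. Acr, Acrv1, Spaca1, Dpy19l2 and Agfg1 were below WT in this band as well, with values given further on. Being below WT was thus not particular to the zona pellucida binding pair. The share of all genes lower by a like amount is not given here. The mean shares in this band were 6.56% (WT), 7.23% (KO) and 6.88% (KI). Zpbp was at 347 CPM (WT), 249 (KO) and 249 (KI), log2 ratios of −0.48 (−0.63 to −0.33) and −0.47 (−0.64 to −0.31). Zpbp2 was at 113, 83.4 and 59.3 CPM, log2 ratios of −0.43 (−0.69 to −0.18) and −0.92 (−1.25 to −0.61). Between 10% and 20%, with only 26 KO and 14 KI cells against 142 in WT, Zpbp2 was at 35.7, 19.7 and 14.4 CPM and Spaca1 at 343, 548 and 510 CPM. The mutant cells there averaged 10.7% and 11.4% against 15% in WT, and whether an equal protamine share marks the same step in the 3 genotypes was not tested.

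**Figure D4:**
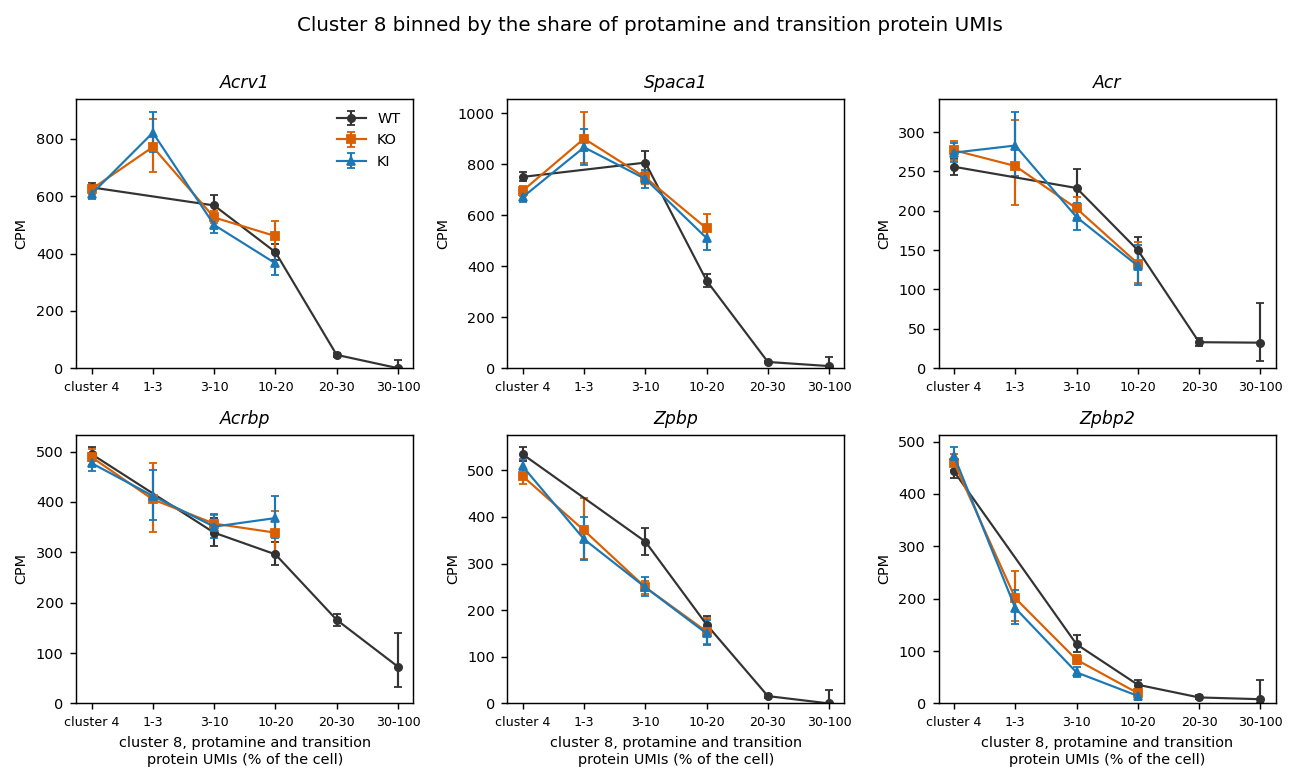
Level of 6 of the genes in CPM (vertical axis) in cluster 4 and in cells of cluster 8 binned by their share of protamine and transition protein UMIs (horizontal axis), for WT, KO and KI, in bins of at least 10 cells, with exact Poisson 95% intervals. WT has 1 cell between 1% and 3% and no point there; between 3% and 10% Zpbp and Zpbp2 lie lower in KO and KI, and only WT goes on past 20%, where Spaca1 is at 24.3 CPM.

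In the low-UMI cluster 1 the mutants were mostly above WT. Spaca1 was at 2053 CPM (WT), 2374 (KO) and 3144 (KI), log2 ratios of 0.21 (0.13 to 0.29) and 0.61 (0.53 to 0.70). Acrv1 was not higher in KO (−0.07, −0.14 to 0.01) and was higher in KI (0.40, 0.32 to 0.48). Agfg1 was lower in KI (−0.56, −1.03 to −0.12). The members' medians were 0.30 in KO and 0.36 in KI beside 0.12 and 0.05 over all genes, and none of 9 was past 2-fold, where 17.7% and 16.1% of all genes were. WT barcodes in this cluster had 2.03% protamine and transition protein UMIs, KO 0.519% and KI 0.432%, and the part of this in the result was not tested. Median totals were only 1183.5, 1362 and 1897 UMIs (WT, KO, KI). The part of free RNA, which may differ between libraries, was not tested either.

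**Figure D5:**
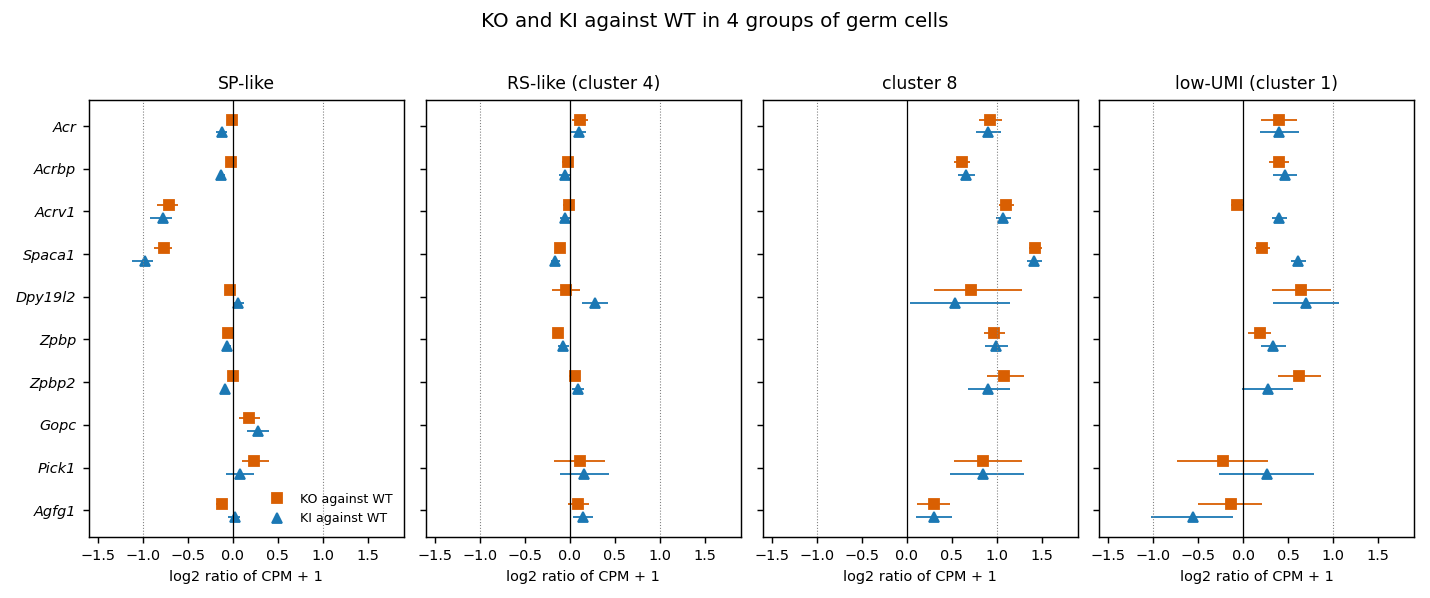
Log2 ratio of CPM + 1 against WT (horizontal axis, dotted lines at 2-fold) of each gene for KO (orange squares) and KI (blue triangles) in SP-like cells, the RS-like cluster 4, cluster 8 and the low-UMI cluster 1; bars are exact 95% intervals of the ratio and cover counting error only, and Gopc is drawn only in SP-like cells. The points lie near 0 in cluster 4 and above 0 in cluster 8 (Agfg1 falls below 0 there with TMM scaling), where Spaca1 is at 1.43 and 1.42, and Acrv1 and Spaca1 lie below 0 in the SP-like class, which pools clusters in different proportions.

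KO and KI were close to each other for these genes in clusters 4 and 8. In cluster 4 the log2 ratios of KI against KO ran from −0.05 to 0.32 over the members, with a median of 0.05, and in cluster 8 from −0.44 to 0.04 with a median of −0.02. No member was past 2-fold in either cluster, where 1.19% and 1.31% of all genes were. They lay further apart in smaller or mixed clusters, where the part of free RNA was not tested. Past 2-fold were 4 of 10 members in cluster 12 (8.37% of all genes, members' median −0.82), 3 of 10 in cluster 13 (15.2%), 2 of 10 in cluster 9 (7.37%) and 2 of 10 in cluster 3 (30%, median −0.81). In clusters 6, 11, 7, 2 and 1 the members' medians lay between −0.06 and 0.06.

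Other genes of the pathway were read from a pair of lists. Of 24 vesicle and Golgi factors, 22 were found and 18 had at least 10 CPM in RS-like cells, where none was past 2-fold in KO or KI, beside 6.24% and 7.92% of all genes, and the medians were 0.21 and 0.27. Of 28 other genes of the acrosomal matrix, membranes and perinuclear theca, 27 had at least 10 CPM, with none past 2-fold in KO, 1 lower in KI, a share under that of all genes, and medians of 0.06 and −0.11. The highest of this list by WT level were Crisp2, which encodes a cysteine-rich secretory protein of the acrosome and tail, at 2047, 2500 and 2628 CPM, and Dkkl1 at 1369, 1322 and 1264 CPM. The highest of the vesicle and Golgi list was Fam209, whose protein works with DPY19L2 at the nuclear envelope, at 1115, 637 and 601 CPM, log2 ratios of −0.81 and −0.89. The gene past 2-fold in KI was Cd46, an inner acrosomal membrane protein, at 20.5, 9.94 and 3.99 CPM; it is named after its values were seen.

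In cluster 8 the matrix list lay above the share of all genes in KO and near it in KI, and the Golgi list near it in both. Of the matrix, membrane and theca genes 10 of 26 were past 2-fold higher in KO and 6 of 25 in KI, none lower, and of the vesicle and Golgi factors 3 of 15 and 4 of 15 were higher, where 23.4% and 24.5% of all genes were higher. Singled out after their values were seen, Izumo1, the sperm receptor for egg fusion, was at 73.7, 254 and 230 CPM, and Sec23ip, a factor of transport from the endoplasmic reticulum, at 18.4, 76.2 and 60.8 CPM. With TMM scaling the medians of the matrix list were 0.12 in KO and 0.10 in KI, and those of the Golgi list −0.07 and −0.08. In the pooled SP-like class the matrix list had medians of −0.63 in KO and −0.77 in KI, and within cluster 7 alone −0.05 and −0.13. In the class none of 21 of its genes was past 2-fold lower in KO and 6 of 20 were in KI, where 2.36% and 3.37% of all genes were. The Golgi list had medians of 0.10 and 0.20 in the class, with 2 and 3 of 22 genes past 2-fold lower.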

How the data were processed

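Libraries were compared as deposited: the authors made UMI counts per gene and barcode with Cell Ranger (version 2.1.1 in the submitters' processing notes) on mm10, and the deposited matrices hold raw counts for every barcode. Cells were called against the profile of empty barcodes (false discovery rate 0.01; at most 20000 barcodes of 500 or more UMIs were tested, a limit reached in KO alone, so part of its barcodes under 1000 UMIs went untested), kept with over 500 genes and under 10% mitochondrial UMIs, integrated with Seurat 5.3.0 (SCTransform, 2000 genes, 100 components) and clustered by Leiden at 0.3 (scanpy 1.11.5). The members and pathway lists were left out of the clustering genes. Scrublet called 143 cells in WT but 3 in KO and 5 in KI, under 0.5% there, so doublets stayed in all libraries and removal by score was an alternative. UMIs were summed per cluster and library and divided by their total (CPM). Log2 ratios used CPM + 1, and a member counted as past 2-fold needed a mean of at least 10 CPM. Intervals are exact Poisson, binomial or Clopper-Pearson at 95%. The text names every member, the highest genes of the pathway lists and the nearest profiles. The members and lists were chosen with earlier results of these data known. The ratio calculation was tested on simulated data. KO and KI comparisons share the WT library.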

Additional observations from a re-analysis of the deposited data

How the results depend on the processing

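No paired analysis was possible because each genotype has 1 library, and for the same reason no replicate could be left out. Of 283 alternatives for the summary values, 241 stayed within the limits set for a stable value and 42 moved. With TMM scaling the medians were −0.17 (KO) and −0.09 (KI) in RS-like cells and 0.41 and 0.34 in cluster 8, with 0 and 0 members past 2-fold there, and 6 KO members were below 50% of their highest level by the ES-like class, against 3 in KO and 4 in KI with CPM. Totals without protamine and mitochondrial genes gave a KO median of 0.76 in cluster 8 and 1 member past 2-fold in each mutant. With clusters pooled into classes, 5 members per library were highest in the RS-like class, in KI with Agfg1 in place of Spaca1. Acrbp was among them by little in WT, at 495 CPM against 488 CPM in the SP-like class. The count came to 3 in WT and KO at a resolution of 0.8 and 3 in all 3 libraries without integration. Leaving out integration also put 8 KI members below 50% by the ES-like class. Without cell calling that KI count was 2, and 1 SP-like member was past 2-fold in KO and in KI, as was 1 in KI with a minimum of 250 genes. Calling by UMI totals alone put 1 KO member past 2-fold in cluster 1, and removal by doublet score 4 KI members in cluster 8. Shares of all genes past 2-fold under these settings are not given here. In the main setting they were 2.47% and 3.53% in SP-like cells, 17.7% and 16.1% in cluster 1 and 27.3% and 27.8% in cluster 8 (KO and KI). The counts under these settings are thus not read as results about the members. At 1.5-fold the counts for KO and KI were 2 and 2 in SP-like cells (7.54% and 7.7% of all genes), 2 and 2 in cluster 1 (42.5% and 37.2%) and 8 and 7 in cluster 8 (52.7% and 52.5%). The cause of these shifts was not tested.

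Of the alternatives chosen after seeing the data, joining cluster 8 to the RS-like cluster 4 raised all 20 RS-like ratios, to medians of 0.25 and 0.37. Cluster 8 cells with 3% to 10% protamine and transition protein UMIs gave −0.13 and −0.22 with 0 and 0 members past 2-fold, and turned below 0 the ratios of Acrv1 (−0.11 in KO, −0.18 in KI), Spaca1 (−0.11 and −0.12), Zpbp2 (−0.43 and −0.92), Zpbp (−0.48 and −0.47), Acr (−0.17 and −0.25), Dpy19l2 (−0.16 and −0.45) and Agfg1 (−0.26 and −0.37). Bands of that share over all spermatids, planned earlier, put 6 KO and 9 KI members below 50%. Restricting the barcodes of 1000 to under 2000 UMIs to uncalled ones gave Acrv1 levels of 187, 138 and 130 CPM and Spaca1 levels of 385, 349 and 373 CPM in WT, KO and KI. Uncalled barcodes are those that calling found close to the empty profile, so these levels are no independent check.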

Other observations

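Members were also counted in the Leydig-like cluster of 15 WT, 21 KO and 20 KI cells, where Acrv1 stood at 7.65, 0 and 16.9 CPM from 1, 0 and 7 UMIs, below its Sertoli-like levels of 105, 161 and 181 CPM. Macrophage-like cells, 13, 28 and 36 of them, were at 348, 97.1 and 182 CPM from 9, 7 and 34 UMIs. Stromal and myoid-like cells were at 88.9, 55.4 and 16.4 CPM from 4, 10 and 2 UMIs. In WT the intervals of these groups overlapped (159 to 661 and 24.2 to 228 CPM). The level of this spermatid mRNA thus differed between Leydig-like and Sertoli-like cells, while the macrophage-like and stromal values rest on few UMIs. The cells of the Leydig-like cluster had median totals of 6894, 10413 and 18945 UMIs, against 1465.5, 1514 and 1552.5 in Sertoli-like cells.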
